A study of Mus musculus with 4 samples.

Results

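The 10 genes described here, Atf4, Atf5, Asns, Chac1, Ddit3, Trib3, Sesn2, Slc7a11, Slc7a5 and Slc3a2, belong to the transcriptional response to amino acid shortage that is led by the transcription factor ATF4. They were chosen by name, and all 10 were found among the 17712 genes of the deposited table; 9 of them passed the filter on low values and were tested, and Chac1 did not. Values come from RNA sequencing of forelimbs of mouse embryos of 2 genotypes, wild type and Shh null, which lacks the limb signalling protein Sonic hedgehog, with 2 libraries per genotype. All embryos were Swiss Webster, an outbred stock, with 33 to 35 somites, and the series title describes the genotypes as littermates. The labels give the age as E10.25 in one field and E10.5 in another (days of embryonic development). The labels do not describe the Shh allele or say how many embryos went into a library, and the design text calls the replicates technical, so a p-value here speaks of the spread among these libraries, which may be technical. Levels are given in CPM, reads scaled to library size with a further scaling between libraries. The libraries held 18456502 to 29620468 reads assigned to genes, and 1 read was worth 0.0351 to 0.0551 CPM.

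When amino acids run short, or when unfolded protein accumulates in the endoplasmic reticulum, sensor kinases phosphorylate the translation factor eIF2. Bulk protein synthesis then slows while the Atf4 mRNA is translated better, through short reading frames upstream of its coding sequence. ATF4 protein pairs with C/EBP factors and switches on genes for amino acid synthesis, amino acid uptake, glutathione turnover and, when stress persists, cell death. Because ATF4 is controlled mainly at translation, its mRNA level is not a measure of its protein, and the target genes are the usual transcript readout of the pathway.

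ATF4 and its C/EBP partners bind a composite element whose core was searched here as TGATGNAA on both strands of the RefSeq promoters (GRCm38.p6, 250 bases before to 50 after each start). Promoters were found for 9 of the 10 genes, all but Slc7a5. Of the 10 promoters of these genes (Atf5 has 2), 4 held the letters, against 3.97% of all 32851 promoters in the table and 2.21% of the 12396 promoters of tested genes. The genes were chosen as response genes, so this share is not independent of their choice. The matches are printed on the strand of the gene with 10 bases on each side, the matching letters in capitals, because these are the members that carry the element next to the start. Slc1a4, an amino acid transporter gene called lower and described further down, is added. Other listed genes that hold the letters are not printed. Positions count from the RefSeq start at 0. The Asns match (chromosome 6, 7693225 to 7693232, first base at −23) lies in an exon of the GENCODE model, which begins further upstream. The others lie outside the GENCODE gene: Chac1 on chromosome 2 from 119351049, first base at −193; Trib3 on chromosome 2 from 152344039, at 14; Slc7a11 on chromosome 3 from 50443672 and from 50443653, at −66 and −47; and Slc1a4 on chromosome 11 from 20332710, at −4.
Asns: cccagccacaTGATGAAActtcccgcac
Chac1: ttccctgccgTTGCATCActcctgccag
Trib3: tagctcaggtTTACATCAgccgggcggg
Slc7a11, first match: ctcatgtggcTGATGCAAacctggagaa
Slc7a11, second match: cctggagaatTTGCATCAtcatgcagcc
Slc1a4: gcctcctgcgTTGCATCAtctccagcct
Asns and the first Slc7a11 match carry the core in the direction of the gene, and the others on the opposite strand. A match is a description of letters and not a measured binding site.

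The libraries carried their labels in the check genes. Shh itself was at 11.4 and 7.88 CPM in wild type and at 3.15 and 2.42 CPM in Shh null (log2 fold change −1.47 ± 0.21 SE on the log2(CPM + 1) scale, limma adjusted p = 0.00615), and this call was lost without either Shh null library (−1.61 with adjusted p = 0.0693 when replicate 1 was left out, −1.34 with 0.0767 when replicate 2 was). The allele is not described, so reads from a part of the gene that is still present cannot be told apart from those of an intact gene. The 8 forelimb mesenchyme genes on the list ranged from 449 CPM (Prrx1) to 6.42 CPM (Msx1) on average in wild type, so their sum weighs the abundant ones most. Their summed level was 1057 and 1105 CPM in wild type and 1593 and 1560 CPM in Shh null. Of the 8, 5 were called higher (Twist1, Lhx9, Prrx2, Lhx2 and Prrx1), where 1.24% of all tested genes were. Fgf10 was called lower (1.24% of all), and the other 2, Tbx5 and Msx1, were not called. Leaving out either Shh null library left 0 of these 6 calls, and fitting without the intensity trend left 1. Libraries also differed in other cell types. The 8 erythroid genes summed to 11015 CPM in wild type 1, 2949 in wild type 2, 3740 in Shh null 1 and 6350 in Shh null 2, an order that does not follow the genotype. The 9 macrophage genes summed to 13.7 and 12.6 CPM in wild type and 25.0 and 23.2 CPM in Shh null. Of the 7 tested, 6 were higher in both Shh null libraries, as were 3324 of all 13224 tested genes. Cx3cr1 was called higher (log2 fold change 1.02, limma adjusted p = 0.0331), where 1.24% of all tested genes were. Its call rested on 27 to 120 reads per library. That call was lost without either Shh null library (log2 fold change 0.79 without Shh null 1, 1.24 without Shh null 2). It was also lost with no filter on low values and with quantile normalization, and held under 8 of 12 alternatives. The Y-linked genes Ddx3y (113 CPM in wild type and 40.7 CPM in Shh null on average), Uty, Kdm5d and Eif2s3y were called lower in Shh null and Xist (188 and 495 CPM) higher, so the share of male tissue and the genotype cannot be told apart. Summed levels ran from 263 to 333 CPM over the libraries for endothelial, from 316 to 355 CPM for surface ectoderm, from 113 to 130 CPM for muscle precursor and from 15.9 to 18.4 CPM for neural and Schwann genes, and Foxd3 of the last list had no read in Shh null 2. Within the surface ectoderm list Fgf8, a signal of the limb's apical ridge, was called lower (log2 fold change −1.65, limma adjusted p = 0.0126). Its level was 25.8 ± 6.27 CPM in wild type and 7.78 ± 3.62 CPM in Shh null (SD, n = 2). The call was lost without Shh null 1 and without the intensity trend, and held under 10 of 12 alternatives. Of the 8 genes of that list, 4 were higher in both Shh null libraries, as were 3324 of all 13224 tested genes. None of these 4 was called. In whole tissue, fewer cells of a type and less RNA per cell cannot be told apart, and the part of these differences in the results below was not tested.

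Among the 10 genes the regulator Atf4 and its enzyme target Asns were the members with lower levels in every Shh null library and unadjusted p-values under the threshold, and Sesn2 was the member with a higher level by the same measure. None passed the test across all genes. By limma, 0 of the 9 tested members were called at an adjusted p under 0.05, where 2.48% of all 13224 tested genes were called, 1.24% lower and 1.24% higher. At an unadjusted p under 0.05, 2 members were lower (Asns and Atf4) and 1 higher (Sesn2), 3 of 9 in all, against 18.5% of all tested genes. edgeR also called 0 members (2.45% of all genes), and DESeq2 called 1, Asns (3.98% of all genes). Groups did not overlap in 6 of the 9 tested members, 3 lower and 3 higher in Shh null, and they did not overlap in 50.2% of all tested genes, so that share is close to the background. Trib3, 1 of the 3 higher, entered the tested set only through its Shh null values, so the filter bears on its side. The median log2 fold change of the tested members was −0.07, beside −0.0005 for all tested genes.

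Atf4 encodes the transcription factor at the head of the response (chromosome 15, 80255184 to 80257541, plus strand, mm10). Its level was 269 CPM in wild type 1, 228 CPM in wild type 2, 196 CPM in Shh null 1 and 194 CPM in Shh null 2. Both Shh null libraries lay below both wild-type libraries, and they nearly coincided while the wild-type libraries were apart. The 7666 and 4147 reads behind the wild-type values differed beyond counting error (exact binomial test between these libraries, p = 1.41e-17). The means of 249 ± 28.7 and 195 ± 1.29 CPM (SD, n = 2) gave a log2 fold change of −0.35 ± 0.11 (SE; 95% interval −0.58 to −0.11; limma adjusted p = 0.127). Without wild type 2 the change was −0.46 and was called (adjusted p = 0.0352), in a fit that called 6.06% of all genes. Without wild type 1, the library with the most erythroid RNA, it was −0.23 and was not called. Whether erythroid RNA has a part in this was not tested. Over 12 alternatives the change stayed below 0 and the adjusted p ran from 0.0352 to 0.495.

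The other factors of the response were far less abundant. Atf5, a related bZIP factor gene that is also controlled at translation (chromosome 7, 44812256 to 44816658), was at 3.65 and 2.59 CPM in wild type and at 4.48 and 4.44 CPM in Shh null. Both Shh null libraries were the higher ones, with 108 and 97 reads against 104 and 47. The log2 fold change of 0.42 ± 0.19 SE had a 95% interval of −0.01 to 0.84 (limma adjusted p = 0.276). Of the exon bases of Atf5, 4.11% lie opposite an exon of Nup62 and of Il4i1, and the strand setting of the counting is not given in the sources used here.

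Ddit3 encodes CHOP, the factor of the late, death-promoting arm (chromosome 10, 127290774 to 127296288). It was at 4.70 and 4.74 CPM in wild type and at 5.06 and 4.30 CPM in Shh null. The groups overlapped and the log2 fold change was −0.01 ± 0.17 SE, with a 95% interval of −0.40 to 0.37 (limma adjusted p = 0.978). Changes within that interval are compatible with these libraries. Larger ones can also go uncalled across all genes, as −0.48 did in Asns. The fold change of Ddit3 was 0.08 without Shh null 2. Of its exon bases, 7.64% lie opposite an exon of Mars.

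Trib3 encodes a pseudokinase that is induced by ATF4 and CHOP and restrains them (chromosome 2, 152337422 to 152344032). Only 28 and 14 reads in wild type and 27 and 27 reads in Shh null stood behind its 0.983, 0.771, 1.12 and 1.24 CPM. Shh null was higher in both libraries, and the counting intervals of all 4 libraries overlapped (0.422 to 1.80 CPM from the lowest to the highest bound). The log2 fold change was 0.22 ± 0.20 SE. Trib3 passed the filter of 1 CPM in 2 libraries only through Shh null, where it is higher, so its value is a description and no test is read from it.

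Asns, asparagine synthetase, makes asparagine from aspartate and glutamine and is a standard reporter of the pathway (chromosome 6, 7675169 to 7693254). The libraries gave 144 CPM in wild type 1, 124 CPM in wild type 2, 89.7 CPM in Shh null 1 and 102 CPM in Shh null 2. The highest Shh null library lay below the lowest wild-type library. Replicates differed 1.16-fold in wild type and 1.13-fold in Shh null, and the group means of 134 ± 14.2 and 95.7 ± 8.48 CPM (SD, n = 2) differed 1.40-fold. On the log2 scale the change was −0.48 ± 0.11 (SE; 95% interval −0.73 to −0.23), with a limma adjusted p of 0.0594 and an edgeR adjusted p of 0.0624. DESeq2 called it (adjusted p = 0.0119), as did limma without wild type 2 (−0.59, adjusted p = 0.00496), within a range of 0.00496 to 0.425 over 12 alternatives. It was not called without wild type 1 (−0.37, 0.162), without Shh null 1 (−0.39, 0.425) or without Shh null 2 (−0.57, 0.114). In the authors' deposited table Asns is the only one of the 10 genes with a false discovery rate under 0.05 (log2 fold change −0.49, false discovery rate 0.0215), where 4.01% of all genes are under it; Atf4 stands there at −0.35 and 0.140.

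Chac1 encodes a glutathione-degrading enzyme that rises steeply when the ATF4 and CHOP arm is active (chromosome 2, 119351229 to 119354381). It was found in 8 and 6 reads in wild type and in 8 and 10 reads in Shh null, at 0.281, 0.331, 0.332 and 0.457 CPM. These levels are near the floor, since 3 reads correspond to 0.105 to 0.165 CPM, and the exact Poisson intervals reached from 0.121 to 0.841 CPM over the libraries. No library reached the 1 CPM of the filter, so Chac1 was not tested. Differences between the genotypes within these counting intervals could not be resolved at this depth.

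Sesn2, sestrin 2, is a leucine sensor that restrains the growth kinase complex mTORC1 and is induced by ATF4 and by p53 (chromosome 4, 132492032 to 132510501). It was at 8.53 and 8.15 CPM in wild type and at 13.3 and 9.79 CPM in Shh null. Both Shh null libraries were higher, and they stood further apart (1.36-fold; exact binomial test between these libraries, p = 0.000523) than the wild-type libraries (1.05-fold). The log2 fold change was 0.41 ± 0.17 SE with a 95% interval of 0.02 to 0.80, and it was not called (limma adjusted p = 0.245). Leaving out Shh null 1 gave 0.21, and leaving out Shh null 2 gave 0.62.

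The 3 transporter members form 2 heterodimers that share a subunit. Slc3a2 encodes the heavy chain 4F2hc, Slc7a5 the light chain LAT1 for large neutral amino acids such as leucine, and Slc7a11 the light chain xCT, which imports cystine in exchange for glutamate. Slc3a2 (chromosome 19, 8706882 to 8723369) was at 59.1 and 74.5 CPM in wild type and at 64.7 and 61.5 CPM in Shh null. Both Shh null values lay between the wild-type ones. Its log2 fold change of −0.07 ± 0.12 SE (95% interval −0.35 to 0.21) became 0.09 without wild type 2. Slc7a5 (chromosome 8, 121881150 to 121907694) was at 14.1 and 13.7 CPM in wild type and at 11.1 and 14.5 CPM in Shh null. Here the groups overlapped because Shh null 2 was the highest library, and the log2 fold change of −0.13 ± 0.16 SE (95% interval −0.48 to 0.23) became 0.05 without Shh null 1. Slc7a11 (chromosome 3, 49892526 to 50443614) was at 58.0 and 57.0 CPM in wild type and at 52.1 and 52.9 CPM in Shh null. Its libraries agreed within counting error inside each group (exact binomial test, p = 0.678 and 0.714), with 1035 to 1653 reads each. The groups did not overlap, and the difference of −0.13 ± 0.10 SE (95% interval −0.36 to 0.10) was not called (limma adjusted p = 0.532; 0.717 for Slc7a5 and 0.802 for Slc3a2).

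**Figure D1:**
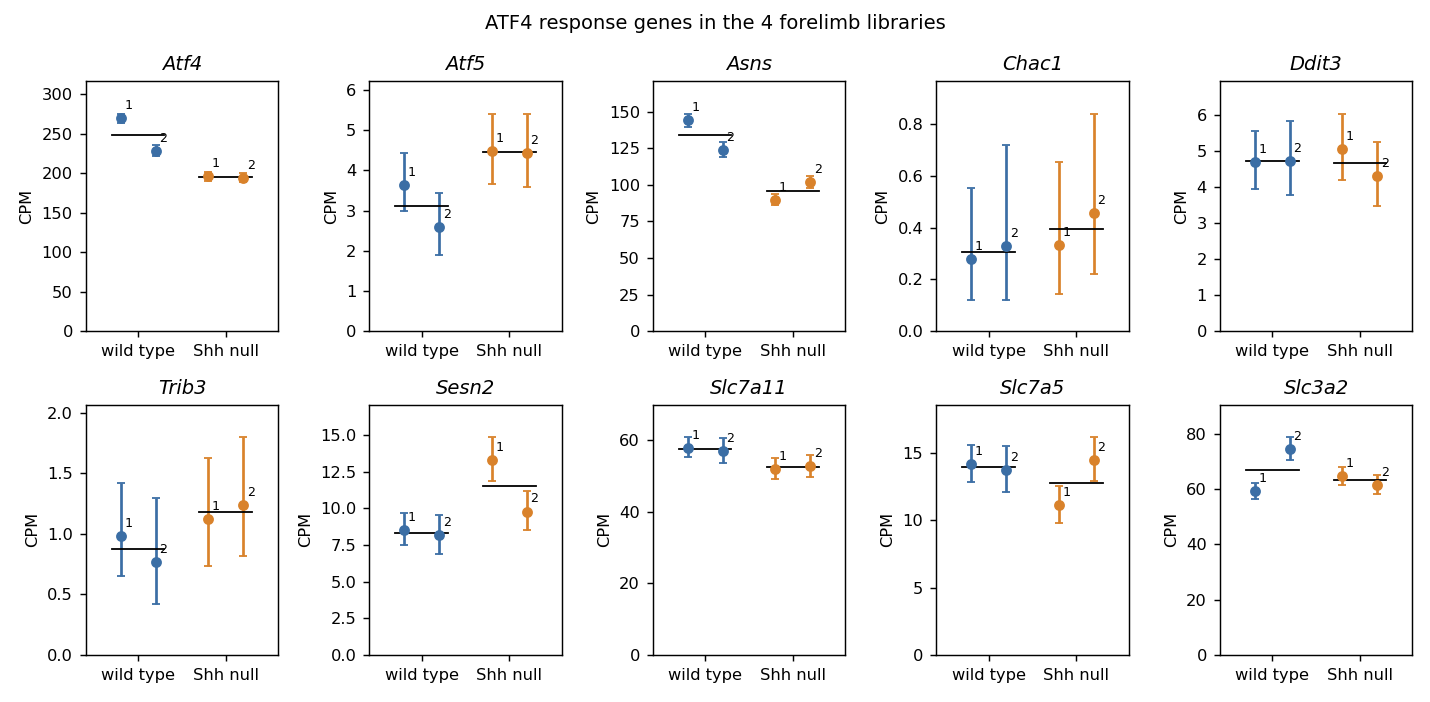
CPM of each of the 10 genes (vertical axes from 0) in the 2 wild-type and 2 Shh null libraries, numbered by replicate, with 95% exact Poisson counting intervals as bars and group means as black lines. Atf4 and Asns lie lower in both Shh null libraries (196 and 194, and 89.7 and 102 CPM), whereas Ddit3, Slc7a5 and Slc3a2 overlap between the groups.

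**Figure D2:**
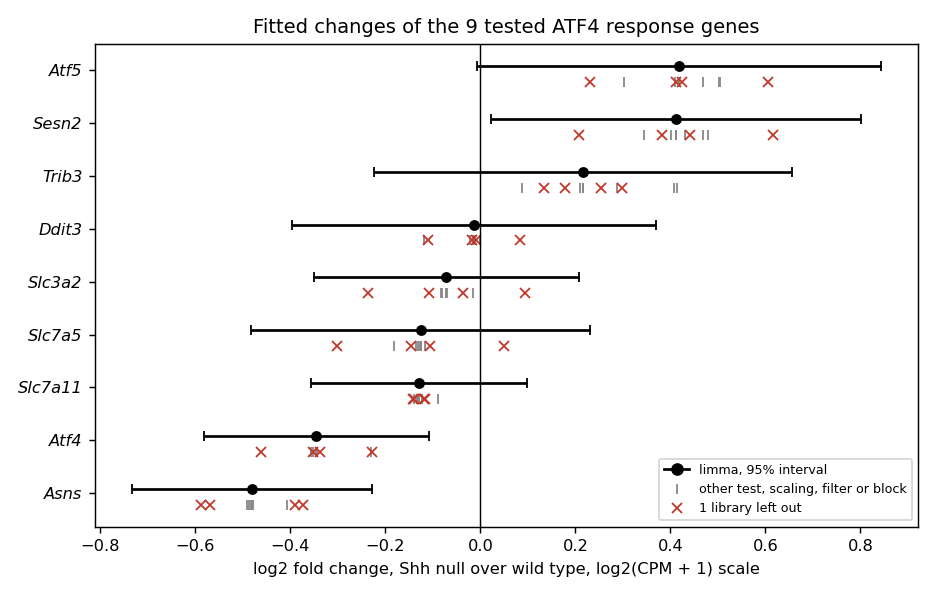
Log2 fold change of Shh null over wild type on the log2(CPM + 1) scale for the 9 tested genes, with 95% limma intervals (black), and the values under 12 alternatives (grey bars, other test, scaling, filter or replicate block; red crosses, 1 library left out). Asns (−0.48) and Atf4 (−0.35) lie below 0 under every alternative drawn, and Ddit3, Slc7a5 and Slc3a2 cross 0 when 1 library is left out.

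Levels between genes are compared per exon length. In CPM per kb of exon, averaged over wild type, Atf4 stood at 144, Asns at 62.0 and Slc3a2 at 22.1. Slc7a11 (5.84), Ddit3 (5.30) and Slc7a5 (3.96) formed a middle group, in which Slc7a11 and Ddit3 overlapped in Shh null (5.29 and 5.37 against 5.68 and 4.83) and could not be ordered there. Slc7a5 and Sesn2 overlapped in Shh null as well (3.16 and 4.11 against 3.83 and 2.82). Sesn2 (2.40), Atf5 (1.57), Trib3 (0.433) and Chac1 (0.187) followed. In each library the heavy chain transcript exceeded either light chain. The ratio of Slc7a5 to Slc3a2 per length was 0.206 and 0.158 in wild type against 0.148 and 0.202 in Shh null, and that of Slc7a11 to Slc3a2 was 0.301 and 0.235 against 0.247 and 0.264. Both ratios overlapped between the genotypes. The lengths are those of GENCODE basic models and carry the error of models that do not match the transcripts made in the limb.

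**Figure D3:**
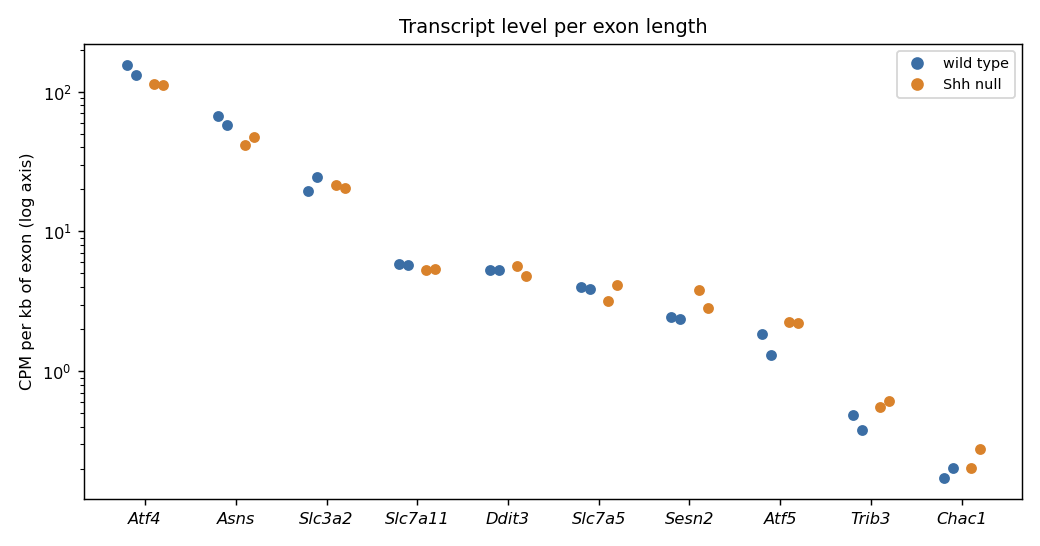
Level of the 10 genes in CPM per kb of exon (log axis), ordered by the wild-type mean, with 1 point per library. Atf4 (144 in wild type) is at the top and Chac1 (0.187) at the bottom, and the order of the genes from Slc3a2 upward is the same in all 4 libraries.

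Further targets of ATF4 were read from a list of 32 genes, of which 30 were in the table and 29 were tested. Of these, limma called 2, both lower (1.24% of all tested genes were), and did not call 27. DESeq2, which called 3.98% of all tested genes, called 6 of the list, 5 lower (Gpt2, Mthfd2, Psat1, Aars and Nars) and 1 higher (Ddit4). Leaving out either Shh null library kept the limma call of Gpt2 and lost that of Mthfd2. Gpt2, a mitochondrial alanine aminotransferase gene, was at 109.8 and 110.0 CPM in wild type and at 62.2 and 56.5 CPM in Shh null, 1.85-fold lower (log2 fold change −0.88 ± 0.10 SE, limma adjusted p = 0.00215), and was called under all 12 alternatives. Mthfd2, a mitochondrial folate enzyme gene, was at 56.7 and 55.1 CPM in wild type and at 35.5 and 34.0 CPM in Shh null (−0.67 ± 0.11 SE, adjusted p = 0.0126), and lost its call without Shh null 1 (0.112) and without Shh null 2 (0.0858). In both genes the replicates of a group lay close together and the groups far apart, a pattern that the choice of called genes favours. The list's median log2 fold change was −0.17, beside −0.0005 for all tested genes, and 21 of its 29 genes were below 0, where 50.1% of all tested genes were. All Shh null values were below all wild-type values in 15 of the 29, against 25.0% of all tested genes, and 12 were lower at an unadjusted p under 0.05, against 9.02%. In 7 of the 29 all Shh null values were above all wild-type values, as in 3324 of all 13224 tested genes. At an unadjusted p under 0.05, 1 was higher.

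The following genes of the list did not pass the limma test and were picked with their values known. Psat1, a serine synthesis gene, was at 209 and 253 CPM in wild type and at 162 and 170 CPM in Shh null (limma adjusted p = 0.0652). The tRNA synthetase genes Aars and Nars were at 205 and 223 against 167 and 160 CPM (0.0732) and at 172 and 179 against 133 and 138 CPM (0.0732). Gars, Wars, Tars, Mars and Cars were also lower in both Shh null libraries, as were 25.0% of all tested genes. Their log2 fold changes were −0.31, −0.17, −0.31, −0.30 and −0.35. Sars was the only synthetase gene of the list to overlap between the groups, at 170 and 167 against 172 and 156 CPM. Phgdh, Psph and Shmt2, also of serine metabolism, had log2 fold changes of −0.32, −0.12 and −0.13. Aldh1l2 and Pck2 of the list were higher in both Shh null libraries, with log2 fold changes of 0.48 and 0.31 (limma adjusted p = 0.279 and 0.305). Ddit4, which encodes an mTORC1 inhibitor that hypoxia and glucocorticoids also induce, lay on the higher side at 16.1 and 21.8 CPM in wild type and at 33.6 and 28.9 CPM in Shh null (log2 fold change 0.71, limma adjusted p = 0.0522). Of the C/EBP partner genes, Cebpg was at 117 CPM in wild type and 116 CPM in Shh null on average and Cebpb at 1.07 and 1.69 CPM, and neither was called. Atf3, an inducible factor gene of the same response, was at 1.68 and 2.64 CPM in wild type and at 1.78 and 1.46 CPM in Shh null. Nupr1 was found in at most 1 read in any library.

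Upstream of ATF4, 17 genes were tested: the eIF2 kinases, the subunits of eIF2 and of its exchange factor eIF2B, and the related genes Gcn1l1, Impact, Ppp1r15b, Eif2a and Dnajc3. Limma, edgeR and DESeq2 called 0 of them (2.48%, 2.45% and 3.98% of all tested genes), and 3 (Eif2s1, Eif2b1 and Dnajc3) had lower levels with an unadjusted limma p under 0.05, against 9.02% of all. The kinase genes are all shown here, whatever their change. Eif2ak4, which encodes the amino acid sensor GCN2, was at 67.3 and 73.8 CPM in wild type and at 65.7 and 69.5 CPM in Shh null. Eif2ak3, which encodes the endoplasmic reticulum sensor PERK, was at 27.3 and 35.0 against 29.1 and 31.0 CPM. Eif2ak1 was at 83.8 and 71.9 against 72.6 and 69.0 CPM. These kinase genes overlapped between the genotypes. Eif2ak2 was higher in both Shh null libraries, at 39.7 and 45.7 against 50.9 and 47.2 CPM. It was not called (log2 fold change 0.20, limma adjusted p = 0.394). The largest differences were in Eif2s1, the phosphorylated subunit of eIF2 (273 and 232 against 177 and 219 CPM, log2 fold change −0.35, adjusted p = 0.176), and Eif2b1 (72.1 and 67.2 against 53.6 and 58.2 CPM, −0.31, 0.156). Eif2s1 was called lower without wild type 2 (−0.47, adjusted p = 0.0372, within 0.0372 to 0.689 over the alternatives). The list's median was −0.13. The third eIF2 subunit is encoded on both sex chromosomes: the X-linked copy Eif2s3x was at 804 and 790 CPM in wild type and at 794 and 836 CPM in Shh null, and the Y-linked Eif2s3y fell from 54.1 to 18.9 CPM on average (adjusted p = 0.000216), with the other Y-linked genes.

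Of the amino acid transporter genes outside the 10, Slc1a4, Slc1a5 and Slc7a6 were called lower. Of 15 tested transporter genes (5 of the 20 on the list were too low to test), 3 were called lower (1.24% of all tested genes were), 12 were not called, and the median log2 fold change was −0.18. Slc1a4, a transporter of alanine, serine and cysteine, was at 32.6 and 31.7 CPM in wild type and at 18.5 and 19.9 CPM in Shh null (−0.72 ± 0.12 SE, limma adjusted p = 0.0161). Slc1a5, a glutamine transporter gene, was at 37.3 and 41.2 CPM in wild type and at 24.4 and 25.3 CPM in Shh null (−0.64 ± 0.12 SE, 0.0230). Slc7a6, which encodes another light chain of 4F2hc and carries cationic and neutral amino acids, was at 170 and 163 CPM in wild type and at 124 and 124 CPM in Shh null (−0.42 ± 0.09 SE, 0.0484). In these 3 genes the groups stood apart by more than the replicates, a pattern that the choice of called genes favours. The call of Slc1a4 held under 10 of 12 alternatives and that of Slc1a5 under 8. Without wild type 1 the list had 3 calls, 1 of them higher. The calls of Slc1a4, Slc1a5 and Slc7a6 were lost without Shh null 1 (adjusted p = 0.183, 0.221 and 0.282) and without Shh null 2 (0.0767, 0.103 and 0.143). The Slc7a6 call was held under 4 of 12 alternatives, and was lost among others without wild type 1 (0.123), with edgeR (0.0539) and with the replicate number as a block (0.0786). Slc1a4 holds the element shown above, and Slc7a6, Gpt2 and Mthfd2 do not within their windows. Slc7a7 of the same list holds it too, at −141 and −1 in its first promoter. It was not called (log2 fold change −0.02, limma adjusted p = 0.974). No promoter was found for Slc1a5.

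The unfolded protein response of the endoplasmic reticulum shares the kinase PERK with this pathway. Among its 21 tested genes limma and edgeR called 0 (2.48% and 2.45% of all tested genes) and DESeq2 called 1, Manf (3.98% of all). At an unadjusted limma p under 0.05, 8 had lower levels, against 9.02% of all tested genes. The median was −0.22, and 12 of the 21 had every Shh null value below every wild-type value (25.0% of all tested genes). The largest differences were in Sdf2l1 (28.2 and 19.5 against 16.6 and 17.7 CPM, log2 fold change −0.43, limma adjusted p = 0.217) and Ero1l, which encodes an oxidase of the folding pathway (71.8 and 78.0 against 53.2 and 60.7 CPM, −0.39, 0.102). Sdf2l1 was called without wild type 2 (−0.69, 0.0146, within 0.0146 to 0.759 over the alternatives). The chaperone gene Hspa5, a common readout of folding stress, was at 1250 and 1250 CPM in wild type and at 988 and 1168 CPM in Shh null and was not called (adjusted p = 0.366).

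**Figure D4:**
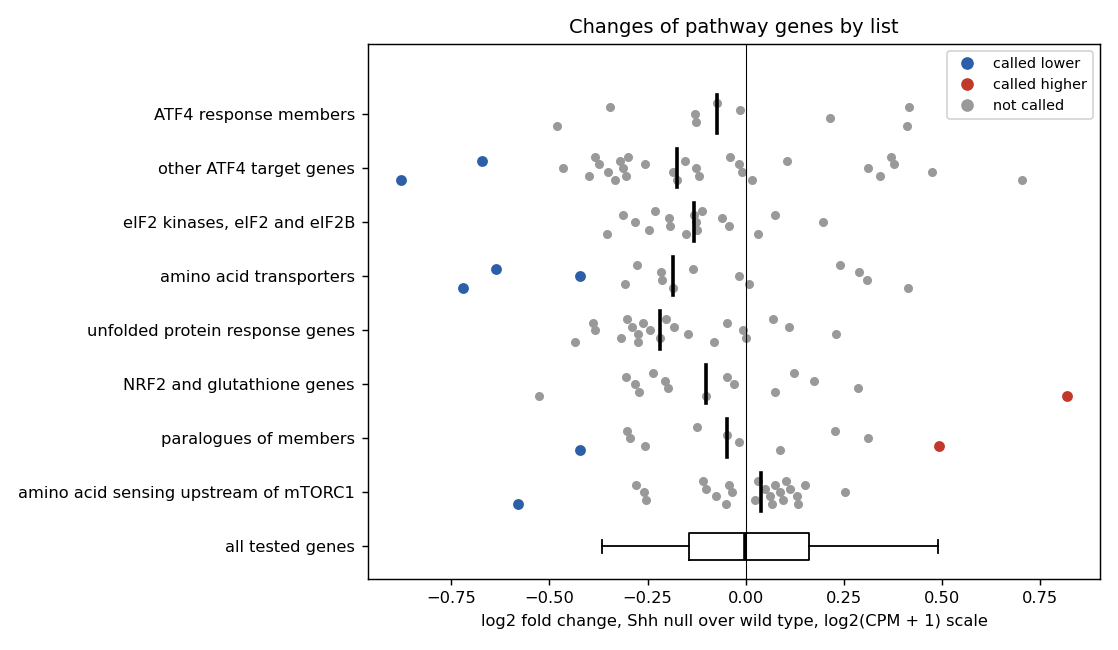
Log2 fold change of Shh null over wild type for every tested gene of 8 lists (points; blue, called lower; red, called higher; grey, not called), with the median of each list as a black bar, and all tested genes as a box from the lower to the upper quartile with whiskers at the 5th and 95th percentiles. The medians of the further ATF4 targets (−0.17), the transporters (−0.18) and the unfolded protein response genes (−0.22) lie below the median of all tested genes (−0.0005), and the 9 tested response genes show no called point.

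The remaining lists each touch a member, and their calls stand beside 2.48% of all tested genes. Among 15 tested genes of the NRF2 and glutathione list, which shares Slc7a11 as a known target, Nqo1, a quinone reductase gene, rose from 16.4 and 13.4 to 27.1 and 26.7 CPM (log2 fold change 0.82 ± 0.14 SE, limma adjusted p = 0.0165). The other 14 were not called, the median was −0.10, and Ggct, with the largest other difference, was at 2.98 and 4.79 against 1.87 and 2.88 CPM (adjusted p = 0.271). Among 11 tested paralogues of the members, Sesn3 rose from 31.9 and 33.8 to 46.9 and 46.3 CPM (0.49 ± 0.11 SE, 0.0499) and Slc7a6 was called lower, and 9 were not called. Sesn1 was at 54.2 and 56.2 against 65.4 and 72.3 CPM (0.31, adjusted p = 0.156) and was not called. Among 24 tested genes of amino acid sensing upstream of mTORC1, Rragd, which encodes a Rag GTPase, fell from 82.9 and 71.0 to 51.0 and 50.9 CPM (−0.58 ± 0.11 SE, 0.0265). The other 23 were not called, Mios among them (79.2 and 85.0 against 67.4 and 67.5 CPM, 0.176), and the median was 0.04. Without Shh null 1 the calls of Nqo1, Sesn3 and Rragd were lost (adjusted p = 0.207, 0.308 and 0.229), and so they were without Shh null 2 (0.103, 0.143 and 0.118). Those of Sesn3 and Rragd were also lost without wild type 1 (0.113 and 0.0687). The Sesn3 call did not hold with the replicate number as a block (0.0640) and held under 4 of 12 alternatives in all, against 7 for Rragd and 10 for Nqo1.

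**Figure D5:**
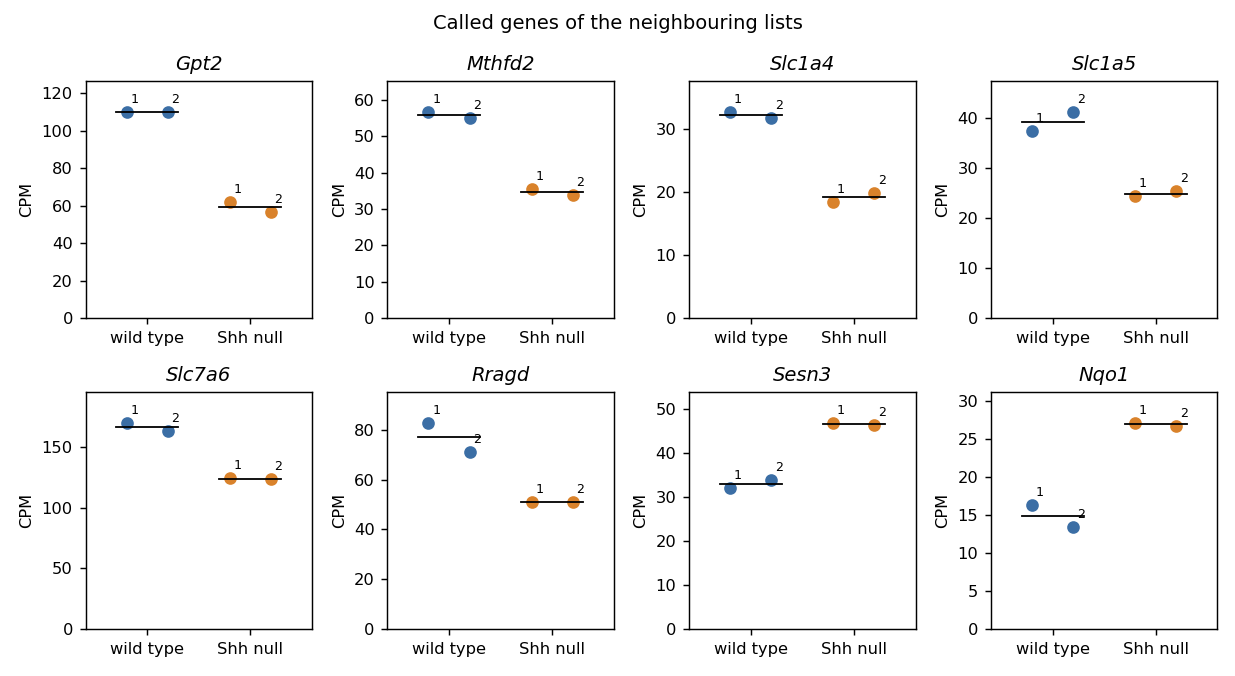
CPM (vertical axes from 0) in the 4 libraries, numbered by replicate, of the 8 genes called on the lists around the response, with group means as black lines. The replicates of each group lie closer to each other than to the other group in every panel, as in Gpt2 (109.8 and 110.0 against 62.2 and 56.5 CPM). The genes were chosen by their calls on these libraries, which favours this pattern, so it is no further support.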

How the data were processed

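Forelimb RNA of 2 wild-type and 2 Shh null libraries was compared; the genotype label gave the groups and the titles gave the replicate numbers. Per the submitters' processing notes, the tools were edgeR 3.4.2, HTSeq 0.5.4p5, TopHat2 2.0.9 and SAMtools, and the build mm10; their annotation, and whether counting used strand, is not given in the sources used here. The authors deposited a signal per gene and library, of which 100% were whole multiples of the smallest value (tolerance 0.001 reads); scaling recomputed from those reads gave the same values, which are therefore TMM-scaled CPM. A second table holds the authors' log2 fold changes, p-values and false discovery rates.

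Genes with at least 1 CPM in at least 2 libraries (13224 of 17712) were fitted as log2(CPM + 1) with limma 3.58.1 in R 4.3.3 (intensity trend, genotype only), Benjamini-Hochberg adjusted over all genes and called under 0.05. A fold change on this scale understates the change of low genes. As alternatives, edgeR 4.0.16 and DESeq2 1.42.0 were run on recovered reads, with 10 other settings in limma. Counting intervals (95%, exact Poisson) cover counting error only. With 2 libraries a group, the smallest two-sided p of an exact permutation test is 0.333. The steps were tested on simulated data. The members and the 15 other gene lists were chosen with earlier results of these data known. Named genes are the members, Shh, and per list up to 4 called genes with the largest change or, where fewer than 2 were called, the 2 largest changes. Of the cell type marker lists the report gives sums and called genes, not every gene so chosen, and 1 gene is not reported here. Coordinates and exon lengths are GENCODE M21 (mm10).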

Additional observations from a re-analysis of the deposited data

How the results depend on the processing

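Of 12 alternative analyses, 10 called 0 members, as limma did with the settings reported; DESeq2 called 1 (Asns) and limma without wild type 2 called 2 (Asns and Atf4), so leaving out a library gave 0 to 2. Over all genes, 328 calls became 526 with DESeq2, 170 with no filter on low values and 207 without the intensity trend, and leaving out a library gave 56 (without Shh null 1), 99 (without Shh null 2), 459 (without wild type 1) and 802 (without wild type 2); with an arm of 1 library, that library is assumed to vary like the others. Without 1 library the log2 fold change changed sign for Ddit3 (0.083 without Shh null 2, −0.11 without Shh null 1), Slc7a5 (0.050 without Shh null 1, range from −0.30), Slc3a2 (0.094 without wild type 2, from −0.24), and, among marker genes, Klf1 (0.55 without wild type 1, −1.44 without wild type 2), Pax3 (−0.025 without wild type 1 to 0.56) and Tubb3 (−0.0076 without wild type 2 to 0.17 without wild type 1, −0.0014 with quantile normalization). The cause was not tested. With the replicate block 0 members and 396 genes were called; the labels do not say that a number marks a shared litter or batch, and the deviations of same-numbered libraries correlated at −0.20 across genes. A crossed pairing, added after seeing the data, called 2 members and 1386 genes. Depth limits Chac1 and Trib3, with at most 10 and 28 reads in a library.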
